A study of Mus musculus with 20 samples.

Results

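Tissue residency is the state of a memory or effector T cell that stays in an organ instead of returning to the blood. It rests on adhesion through integrins, which are pairs of an alpha and a beta chain, and on a loss of the signals that draw cells out of tissue. The 9 genes described here were chosen by name: the integrin chains Itgae, Itga1, Itga4, Itgal, Itgb2 and Itgb7, the retention genes Cd69 and Rgs1, and Cd44, the receptor for the matrix sugar hyaluronan. All 9 of 9 were found among the 17097 genes measured, through 17 probe sets (groups of short oligonucleotides against a transcript), and the probe set of highest mean over all arrays stood for each gene.

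The data are log2 array intensities of T cells purified as CD44+CD8+ from lungs of mice carrying 4T1, a mouse mammary carcinoma line. There were 5 arrays of Saline-CTRL (saline) and 6 of SD-101, a ligand of the DNA receptor TLR9. A further 5, named below as the combination, had both agents (SD-101+anti-PD-1), and 4 had all 3 (SD-101+anti-PD-1+a-CD4), named below as the a-CD4 combination. PD-1, the target of the antibody, restrains T cells. The labels describe intranasal treatment, and every group carried the tumour and the same sort. They name the last agent only as a-CD4 and do not say whether numbered samples were taken from different mice. The p-values therefore cover only the spread among these samples, which may be technical.

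Transcripts of T cells were present. Over all arrays, 11 measured T cell genes averaged from 4.20 for Trat1 to 11.35 for Cd3d, with Cd8a at 10.80 and Cd8b1 at 11.01. Every group had the same sort, so these levels do not measure what it achieved. Transcripts of other lung cells were present too: the surfactant gene Sftpc averaged 13.14 and the club cell gene Scgb1a1 11.63. The T cell identity score, the mean level of 11 measured T cell genes, ran from 8.11 to 9.94, and a-CD4 combination replicate 2 (8.11) and Saline-CTRL replicate 1 (8.52) were lowest. A score of 7 neutrophil genes was 10.06 on the latter array against 3.05 to 3.31 on the other saline arrays. In such bulk RNA, fewer cells of a type and less RNA per cell cannot be told apart. Levels are compared only within a gene, since probe sets differ in how strongly they bind.

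None of the 9 genes passed the test in any of the 6 pairwise comparisons of the 4 groups (limma, Benjamini-Hochberg adjusted p under 0.05 over all genes). Of all genes, 0.333% passed in SD-101 vs saline, 5.63% in the combination vs saline and 7.12% in the a-CD4 combination vs saline. The shares were 4.77% in the combination vs SD-101, 2.13% in the a-CD4 combination vs the combination and 0.983% in the a-CD4 combination vs SD-101. Without adjustment, the members with p under 0.05 numbered 1, 2, 3, 3, 0 and 2 in the same order, where 8.27%, 18.6%, 20.8%, 18.3%, 17.9% and 16.6% of all genes passed. The differences that came nearest were those of Cd69 and Itga1. By direction alone, 7 of 9 members were higher in SD-101 than in saline (median log2 difference 0.40, against 0.01 over all genes). In the combination vs SD-101 7 of 9 were lower (median -0.37, against 0.01), and in the a-CD4 combination vs SD-101 8 of 9 (median -0.38, against 0.03). The share of all genes by direction was not counted. The 11 T cell identity genes had medians of 0.33, -0.05 and -0.17 in these 3 comparisons. With the T cell identity score as a covariate, SD-101 vs saline gave 0.49 for Itgae, 0.29 for Itgb2 and 0.16 for Itgb7, in place of 0.86, 0.40 and 0.43. Some other settings of the test called Cd69, Itga1, Itgal, Itgb2 or Rgs1, as given below beside each.

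**Figure D1:**
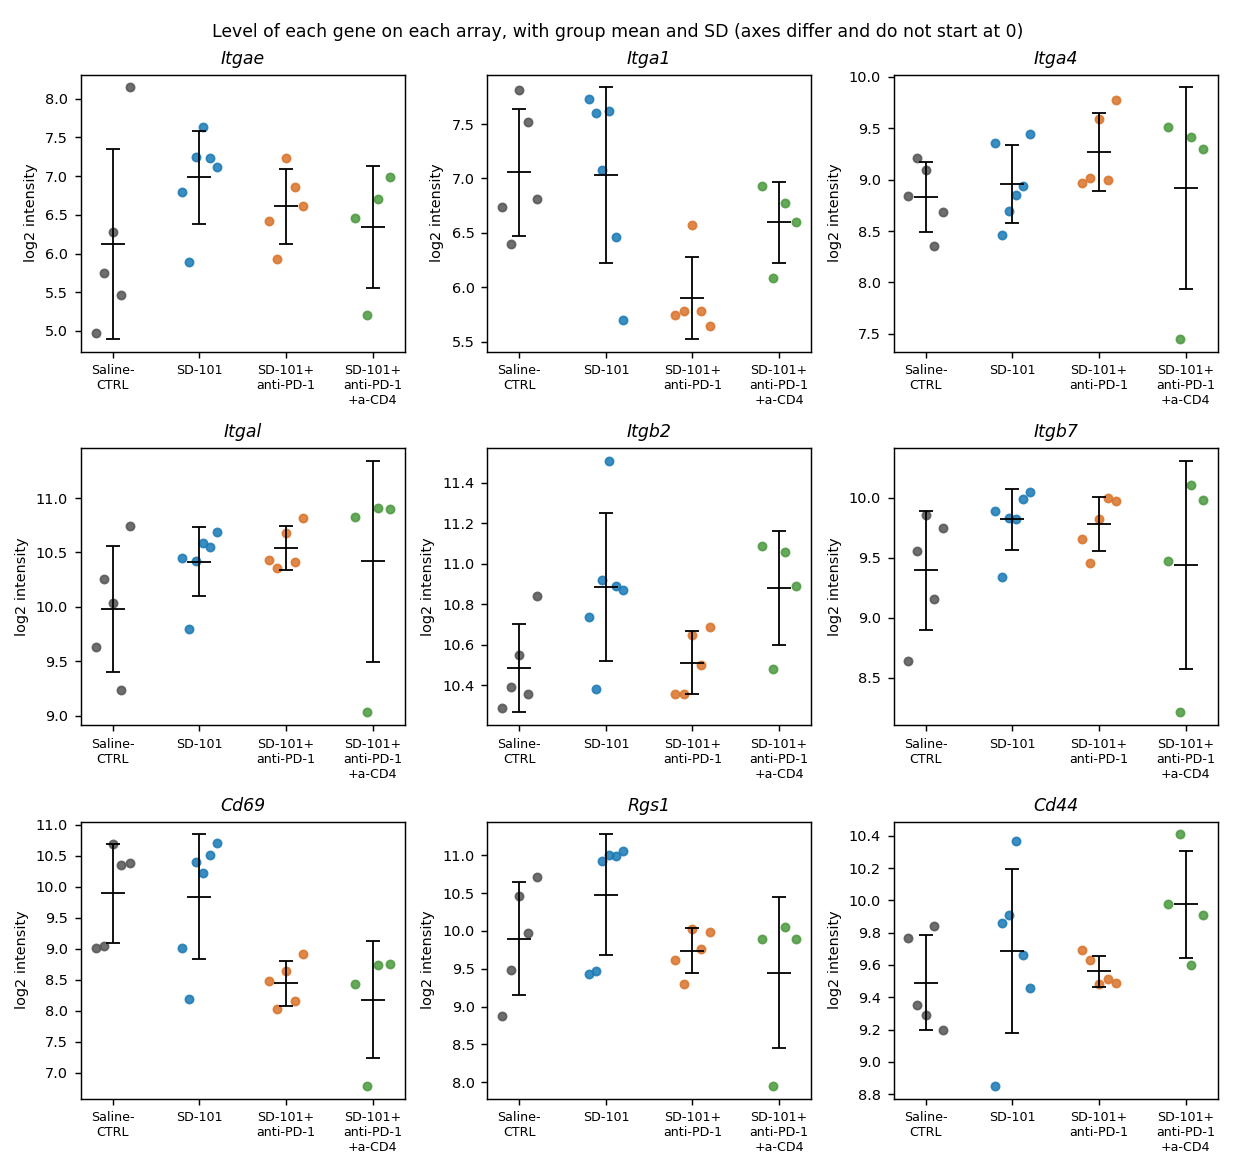
Log2 intensity (vertical axes, which differ between panels and do not start at 0) of the 9 genes on each array, 1 point per array, by treatment group, with the group mean and SD as bars. All points of Cd69 in the 2 groups given anti-PD-1 lie below the lowest saline point of 9.01, and 4 of 5 points of Itga1 with the combination lie between 5.64 and 5.78.

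Itgae encodes the alpha E chain (CD103), which pairs with the beta 7 chain to bind E-cadherin on epithelium and marks many resident CD8 T cells. The saline arrays read 4.97, 5.75, 6.28, 5.47 and 8.15. With SD-101 the lowest, median and highest were 5.89, 7.18 and 7.63. The saline array at 8.15 exceeded every other array of the series, so the groups overlapped. The combination gave 6.42, 5.93, 7.23, 6.86 and 6.62. The a-CD4 combination gave 6.46, 5.20, 6.71 and 6.99. By group mean the order was SD-101 (6.99 ± 0.60, SD, n = 6), the combination (6.61 ± 0.49, n = 5), the a-CD4 combination (6.34 ± 0.79, n = 4) and Saline-CTRL (6.13 ± 1.23, n = 5), and no neighbours differed beyond their spread. For SD-101 vs saline the log2 difference was 0.86 (SE 0.46, 95% interval -0.11 to 1.83, limma adjusted p = 0.662, exact permutation p = 0.152). It was 1.37 without Saline-CTRL replicate 5 (adjusted p = 0.145) and 0.57 without Saline-CTRL replicate 1 (adjusted p = 0.904), so single saline arrays moved it by more than 1.5 times.

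Itgb7 encodes the beta chain shared by Itgae and Itga4. A promoter window listed for it is shown because Itgb7 is the member whose level followed the T cell genes most closely. The sequence covers 250 bases before to 50 after the RefSeq start on the minus strand (GRCm38.p6, chr15:102231886-102232185), with capitals for letters of an ETS-type motif (ACTTCC) and a KLF-type motif (CCACCC) searched on both strands:
Itgb7: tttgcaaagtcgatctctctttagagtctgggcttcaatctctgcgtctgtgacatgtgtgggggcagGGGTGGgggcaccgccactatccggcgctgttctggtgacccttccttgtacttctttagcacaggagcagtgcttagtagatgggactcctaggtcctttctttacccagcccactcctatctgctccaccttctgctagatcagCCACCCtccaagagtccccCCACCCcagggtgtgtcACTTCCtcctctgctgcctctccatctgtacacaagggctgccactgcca
ACTTCC began at base 251 of the window, at the start the window was built on, and CCACCC or its reverse complement GGGTGG occurred at bases 69, 215 and 234. That start lies inside the gene, which is annotated as far as chr15:102233405, so the window is not that of the gene's outermost start. Of 32851 promoter windows in the table, 23.8% hold ACTTCC and 31.5% hold CCACCC on either strand, so both are common and their presence is a description only. Saline arrays of Itgb7 read 8.64, 9.56, 9.86, 9.16 and 9.75. Combination arrays ran upward from 9.46 with a median of 9.82, and all were within the range of the SD-101 arrays. SD-101 arrays ran from 9.34 (median 9.86) to 10.05, and a-CD4 combination arrays read 9.47, 8.21, 10.11 and 9.98. All groups overlapped, the log2 difference of SD-101 vs saline was 0.43 (SE 0.28, 95% interval -0.16 to 1.01, limma adjusted p = 0.744), and adjusted p over the 6 comparisons ran from 0.537 to 0.969.

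Itga4 encodes the alpha 4 chain, which binds VCAM-1 with beta 1 and MAdCAM-1 with beta 7. The saline arrays ran from 8.35 to 9.21, the SD-101 arrays from 8.46 to 9.44 and the combination arrays from 8.97 to 9.77. With the a-CD4 combination the arrays read 9.51, 7.45, 9.41 and 9.30, so 3 of 4 were above every saline array and the remaining array was below all others of the series. The largest difference was that of the combination vs saline at 0.44 (SE 0.32, 95% interval -0.24 to 1.11, limma adjusted p = 0.527). Itga4 has 5 probe sets, and they did not order the groups alike: a dimmer probe set had means of 4.57 with saline, 5.10 with SD-101, 5.49 with the combination and 5.46 with the a-CD4 combination, against 8.83, 8.96, 9.27 and 8.92 for the probe set used.

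Itgal and Itgb2 encode the alpha L and beta 2 chains of LFA-1, the integrin by which T cells grip ICAM-1 on target cells and vessels. Itgal read 9.63, 10.26, 10.04, 9.24 and 10.74 with saline. With the a-CD4 combination it read 10.83, 9.03, 10.91 and 10.90, so 3 arrays were above and 1 was below all saline arrays. The log2 difference of the a-CD4 combination vs saline was 0.44 (SE 0.34, limma adjusted p = 0.517). It was 0.90 without a-CD4 combination replicate 2 (adjusted p = 0.0438), the array of lowest T cell identity score, and 0.83 with arrays weighted by quality (adjusted p = 0.0286). A second, dimmer probe set of Itgal had means of 6.97 with saline, 7.72 with SD-101, 7.53 with the combination and 7.81 with the a-CD4 combination, a wider gap from saline to the a-CD4 combination than in the probe set used. With the mean of both probe sets that difference was 0.64 (adjusted p = 0.31). Combination arrays of Itgal ran from 10.36 to 10.82 and SD-101 arrays from 9.80 to 10.69. The largest Itgal difference was that of the combination vs saline at 0.56 (SE 0.32, 95% interval -0.11 to 1.22, limma adjusted p = 0.378).

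Itgb2 had the smallest standard errors of the 9 members (0.16 to 0.18), which pool the spread over all groups. Saline arrays ran from 10.29 to 10.84, SD-101 arrays from 10.38 to 11.51, combination arrays from 10.36 to 10.69 and a-CD4 combination arrays from 10.48 to 11.09. The group means formed 2 levels, 10.88 with SD-101 and with the a-CD4 combination, and 10.49 and 10.51 with saline and the combination, although the groups overlapped. The log2 difference was 0.40 for SD-101 vs saline (95% interval 0.06 to 0.73, limma adjusted p = 0.489), 0.39 for the a-CD4 combination vs saline (0.02 to 0.77, adjusted p = 0.21) and -0.37 for the combination vs SD-101 (-0.71 to -0.04, adjusted p = 0.211). None passed. Array weights alone among the settings tried called the latter 2 comparisons (0.48, adjusted p = 0.0406, and -0.41, adjusted p = 0.0212). They also called the a-CD4 combination vs the combination (0.47, adjusted p = 0.033, against 0.37 and 0.282 unweighted). Beta 2 is shared with integrins of myeloid cells. SD-101 replicate 4, the array at 11.51, also had the highest macrophage and monocyte score (7.05, against 4.31 to 5.45 on the other SD-101 arrays). In the a-CD4 combination the highest array, replicate 1 at 11.09, had the highest neutrophil score of its group (9.09), and the group's mean neutrophil score was 6.21 against 4.28 with the combination. By contrast, Saline-CTRL replicate 1 had the highest neutrophil score of the series (10.06) and the lowest Itgb2 (10.29). Over the 20 arrays Itgb2 correlated with the neutrophil score at 0.03 and with the macrophage and monocyte score at 0.58 (-0.1 and 0.55 with group means removed). With scores of natural killer, dendritic and T cell genes it correlated at 0.67, 0.65 and 0.60 (0.83, 0.58 and 0.67 with group means removed). The part of each cell type in the Itgb2 values was not tested.

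Itga1 encodes the alpha 1 chain (CD49a), which binds collagen with beta 1 and is carried by resident CD8 T cells as well as by stromal and vessel cells. Its promoter is shown because Itga1 had the largest group difference among the integrin chains (GRCm38.p6, chr13:115101915-115102214, minus strand, 250 bases before to 50 after the start). Capitals mark the same motifs:
Itga1: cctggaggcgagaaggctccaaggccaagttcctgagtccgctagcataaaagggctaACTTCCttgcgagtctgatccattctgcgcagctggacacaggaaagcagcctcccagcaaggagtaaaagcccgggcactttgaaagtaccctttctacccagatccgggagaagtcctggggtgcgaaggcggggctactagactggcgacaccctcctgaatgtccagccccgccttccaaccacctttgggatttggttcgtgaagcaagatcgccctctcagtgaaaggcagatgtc
It holds ACTTCC at base 59 and no CCACCC on either strand. The saline arrays read 6.74, 6.40, 7.81, 7.52 and 6.81. The combination gave 5.74, 5.78, 6.57, 5.78 and 5.64. Thus 4 of 5 arrays were below every saline array, and the fifth lay within the saline range. A-CD4 combination arrays read 6.93, 6.08, 6.77 and 6.60, and SD-101 arrays spread from 5.70 (median 7.34) to 7.73.

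For the combination vs saline the log2 difference of Itga1 was -1.15 (SE 0.35, 95% interval -1.89 to -0.42), a level 2.23-fold lower, with limma adjusted p = 0.0627 and exact permutation p = 0.0159. Against SD-101 alone it was -1.13 (SE 0.34, 95% interval -1.83 to -0.42, limma adjusted p = 0.063, exact permutation p = 0.039). Both differences narrowly missed the threshold as fitted. With arrays centred on their medians they were -1.29 (adjusted p = 0.0226) and -1.24 (adjusted p = 0.0281), and quantile normalization also called both (adjusted p = 0.0356 and 0.0356). Leaving out 1 array gave -1.32 without Saline-CTRL replicate 2 (adjusted p = 0.0303) in the first comparison and -1.39 without SD-101 replicate 6 (adjusted p = 0.0106) in the second, which were called, while adjusted p reached 0.186 and 0.147 without others. Adding a-CD4 to the combination gave a difference of 0.69 (95% interval -0.09 to 1.48, limma adjusted p = 0.354).

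The level of Itga1 went with that of vessel genes. Over the 20 arrays its Pearson correlation with the mean of 10 endothelial markers was 0.82, and 0.74 once group means were removed, whereas that with the T cell identity score was 0.05 and 0.09. The gene most like it was Erg, a transcription factor of endothelial cells (r = 0.90), followed by Inka1 (r = 0.90). The endothelial score was 9.47 ± 0.73 (SD, n = 5) with saline and 6.35 ± 0.42 (SD, n = 5) with the combination, ranges of 8.35 to 10.22 and 5.76 to 6.86, and 9 of 10 endothelial markers fell in that comparison. Of all genes, 5.63% were called there. Over all arrays Cdh5 averaged 7.15 and Pecam1 8.18. Their means were 8.74 and 9.32 with saline and 4.87 and 6.65 with the combination, where the median of all gene means was 5.29. Combination replicate 3 had the lowest endothelial score (5.76) but the highest Itga1 of its group (6.57). The part of vessel cells in the Itga1 difference was not tested.

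Cd69 encodes a membrane protein of recently activated and of resident T cells that binds the egress receptor S1PR1 and removes it from the cell surface. Saline arrays read 9.01, 9.05, 10.69, 10.35 and 10.38. The combination gave 8.48, 8.03, 8.64, 8.16 and 8.92. The a-CD4 combination gave 8.44, 6.79, 8.74 and 8.76. Every array of these 2 groups lay below every saline array, a separation shown downwards by 2.32% of all genes with the combination and by 3.32% with the a-CD4 combination. The SD-101 arrays lay in 2 sets, replicates 1 and 2 at 9.02 and 8.20 and the remaining 4 between 10.22 and 10.71, so their group overlapped all others. The saline arrays lay likewise, with replicates 1 and 2 at 9.01 and 9.05 and the remaining 3 between 10.35 and 10.69, and replicates 1 and 2 were also the lowest of the a-CD4 combination. With the combination replicate 2 was lowest (8.03), but replicate 4 (8.16) lay below replicate 1 (8.48).

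For the combination vs saline the log2 difference of Cd69 was -1.45 (SE 0.49, 95% interval -2.47 to -0.43), a level 2.73-fold lower, with limma adjusted p = 0.0939 and exact permutation p = 0.00794, the smallest possible there. For the a-CD4 combination vs saline it was -1.71 (SE 0.52, 95% interval -2.79 to -0.63), 3.27-fold lower, with limma adjusted p = 0.0512 and exact permutation p = 0.0238. Against SD-101 alone the differences were -1.40 (limma adjusted p = 0.0931) and -1.66 (limma adjusted p = 0.104). Adding a-CD4 to the combination gave -0.26 (95% interval -1.34 to 0.82, limma adjusted p = 0.856), and SD-101 alone against saline gave -0.05 (-1.02 to 0.93, adjusted p = 0.993). With the T cell identity score as a covariate all 4 differences passed, at -1.66 (adjusted p = 0.0049) and -1.85 (adjusted p = 0.00209) against saline and -1.27 (adjusted p = 0.0269) and -1.45 (adjusted p = 0.0255) against SD-101. Without a-CD4 combination replicate 2 the difference of that group from saline was -1.25 (adjusted p = 0.176), and without Saline-CTRL replicate 1 or 2 it was -1.93 or -1.92 (adjusted p = 0.0356 and 0.0377). For the combination vs saline, omission of Saline-CTRL replicate 2 gave -1.66 (adjusted p = 0.0491). Against SD-101, omission of SD-101 replicate 2 gave -1.73 for the combination (adjusted p = 0.0219) and -1.99 for the a-CD4 combination (adjusted p = 0.0392). No other single omission called these differences. Adjusted p then reached 0.238 for the combination vs saline, 0.201 for the combination vs SD-101 and 0.321 for the a-CD4 combination vs SD-101. The smallest differences were -1.25, -1.23 and -1.20 in that order.

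**Figure D2:**
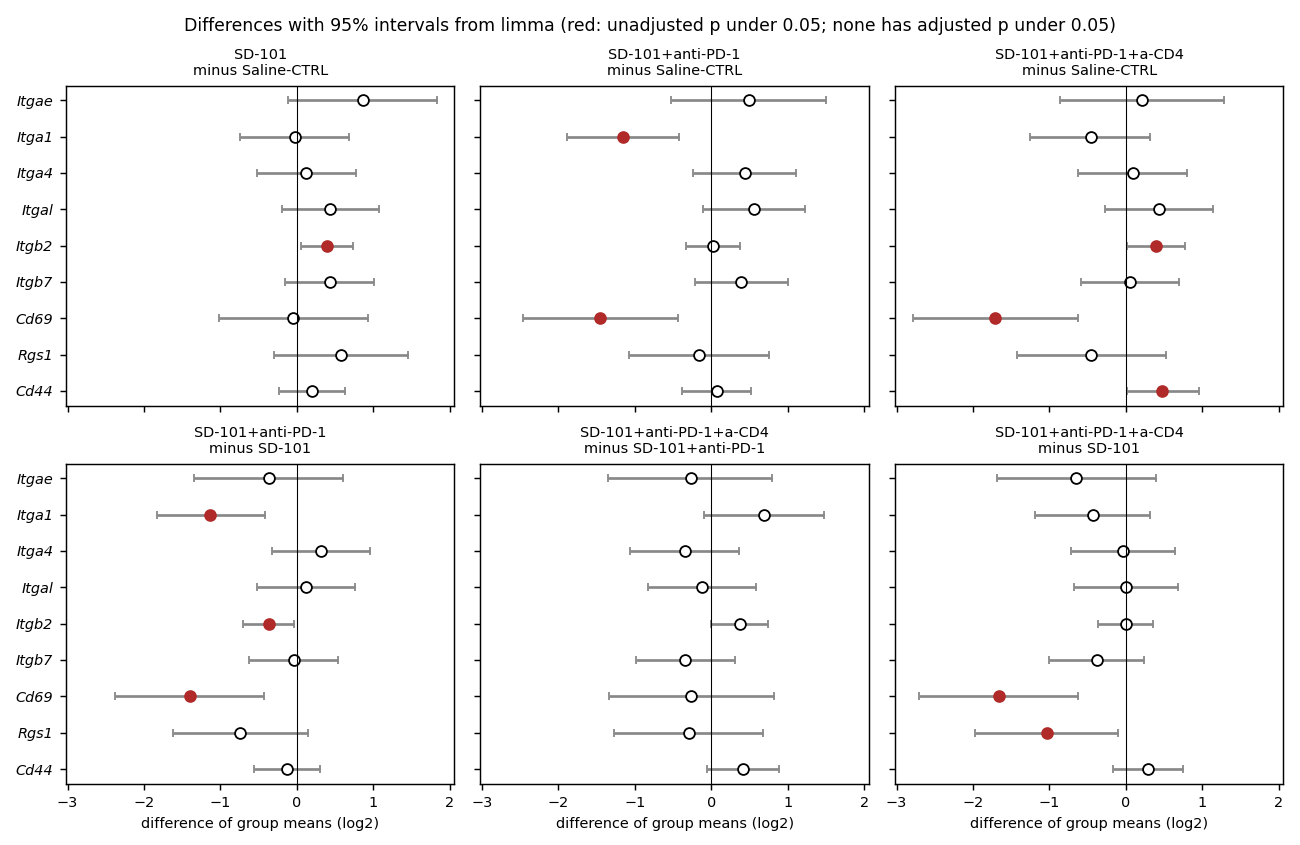
Difference of group means (log2, horizontal axis) with its 95% interval from limma for each gene in each of the 6 comparisons. Red points mark an unadjusted p under 0.05 and open points the rest. The intervals of Cd69 exclude 0 in the 4 comparisons of a group given anti-PD-1 with a group not given it, and those of Itga1 in the 2 that compare the combination with saline and SD-101.

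Cd69 followed the immediate early genes, which are induced within minutes by receptor signals and by the handling of cells. Its 2 most similar genes were Dusp2 (r = 0.97) and Ppp1r15a (r = 0.96), which belong to that list. With the mean of 17 measured immediate early genes, a list drawn up after these data were seen, Cd69 correlated at 0.88 over 20 arrays and at 0.79 with group means removed. Since the list holds the genes closest to Cd69, these correlations may be partly built in by its choice. The score ran from 9.65 to 10.60 with saline, from 8.82 to 9.18 with the combination and from 8.88 to 9.26 with the a-CD4 combination. In the combination vs saline 12 of 17 of these genes fell and 0 rose, with a median of -1.05 against 0.03 for all genes, and in the a-CD4 combination vs saline 11 fell and 0 rose. Of all genes, 5.63% and 7.12% were called there. Egr1, a transcription factor induced by T cell receptor signals, fell by 1.33 in the former comparison (limma adjusted p = 0.000415). SD-101 replicates 1 and 2, the arrays of low Cd69, had scores of 9.21 and 9.22 against 10.11 to 10.31 for the others of their group. Saline replicates 1 and 2 had 9.83 and 9.65 against 10.38 to 10.60 for the others. Whether handling had a part in the Cd69 values was not tested.

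Rgs1 encodes a GTPase activator that dampens chemokine receptor signals and is high in resident T cells. Saline arrays read 8.87, 9.48, 10.46, 9.97 and 10.71, and SD-101 arrays ran from 9.43 (median 10.96) to 11.06. The combination gave 9.62, 9.30, 10.03, 9.76 and 9.99. The a-CD4 combination gave 9.89, 7.95, 10.05 and 9.90. The SD-101 arrays again split, with replicates 1 and 2 at 9.43 and 9.47 and the other 4 from 10.93 to 11.06, above every array of the remaining groups. Replicates 1 and 2 were likewise the lowest with saline (8.87 and 9.48), the combination (9.62 and 9.30) and the a-CD4 combination (9.89 and 7.95, next 9.90). The largest difference was that of the a-CD4 combination vs SD-101 at -1.03 (SE 0.45, 95% interval -1.97 to -0.10, limma adjusted p = 0.252), and it was -0.53 without a-CD4 combination replicate 2 (adjusted p = 0.644). The combination vs SD-101 gave -0.74 (adjusted p = 0.387), and -0.94 with array weights (adjusted p = 0.0358). The gene most like Rgs1 was Tnf, the inflammatory cytokine (r = 0.95), and its correlation with Cd69 was 0.94 with group means removed.

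Cd44 is the gene of the sorting marker, a hyaluronan receptor kept high on activated and memory T cells. The sort itself may bear on its level, and this was not tested. Saline arrays read 9.77, 9.35, 9.29, 9.84 and 9.20. Combination arrays lay closest together, from 9.48 to 9.69. The a-CD4 combination gave 9.98, 10.41, 9.60 and 9.91, so 3 of 4 were above all saline arrays. The difference of the a-CD4 combination vs saline was 0.48 (SE 0.23, 95% interval 0.01 to 0.96, limma adjusted p = 0.232). The highest array, replicate 2, was the one of lowest T cell identity score, and without it the difference was 0.34 (adjusted p = 0.504). Of its 3 other probe sets, 2 correlated with the one used at 0.87 and 0.93 over the arrays, and the last, averaging 2.59, was near the lowest gene mean of 2.12.

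The members formed 3 patterns over the arrays. Itgae, Itgb7, Itga4, Itgal, Itgb2, Rgs1 and Cd69 correlated positively with each other in all pairs once group means were removed, from 0.40 for Itgae with Itga4 to 0.94 for Cd69 with Rgs1. The partner chains Itgae and Itgb7 correlated at 0.74, Itga4 and Itgb7 at 0.75 and Itgal and Itgb2 at 0.71. These values are no closer than that of the non-partners Itgal and Itgb7 (0.86). Itga1 correlated with none of the others beyond 0.16, and Cd44 correlated negatively with Itga4 (-0.60), Itgb7 (-0.58) and Itgal (-0.52). The T cell identity score went with these patterns, at 0.96 for Itgb7, 0.92 for Itgal, 0.80 for Itgae and -0.62 for Cd44. Arrays share hybridisation and RNA content, so these are descriptions over 20 arrays.

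**Figure D3:**
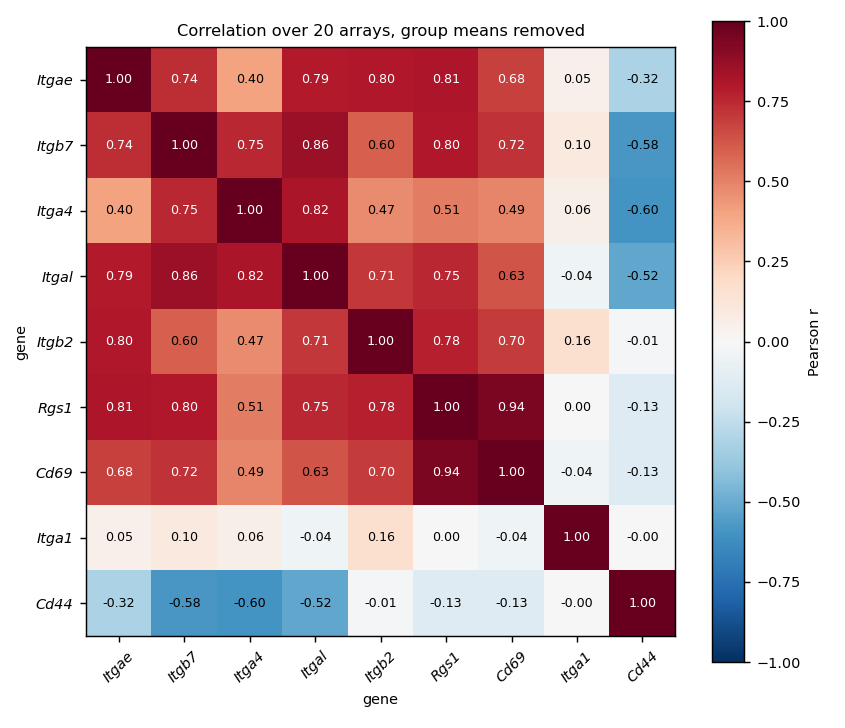
Pearson correlation of the log2 levels of each pair of the 9 genes over 20 arrays after the mean of each treatment group was taken off, printed in each cell and coloured from blue (negative) to red (positive). Itgae to Cd69 form a block of positive values, Itga1 stands apart near 0 and Cd44 is negative with Itga4, Itgb7 and Itgal.

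**Figure D4:**
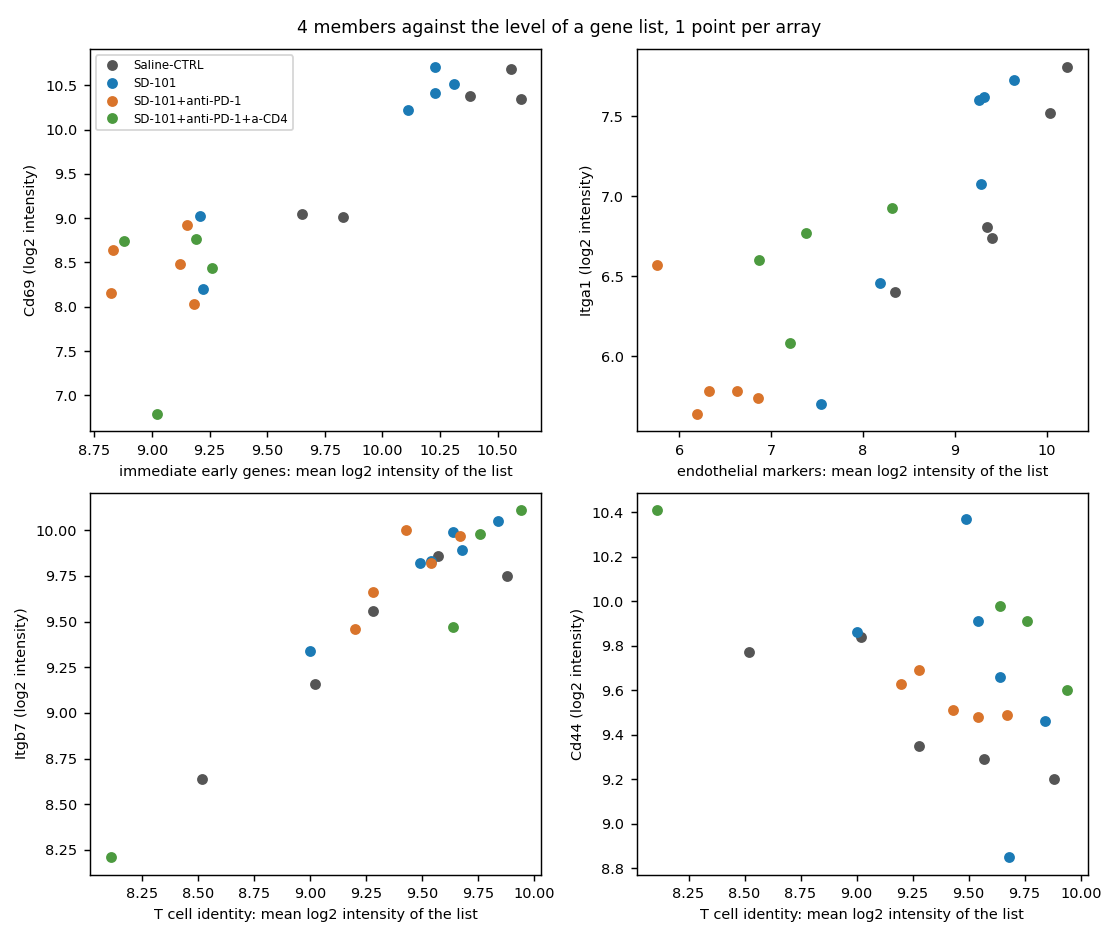
Log2 level of 4 members (vertical axes) against the mean log2 level of a gene list (horizontal axes), 1 point per array, coloured by group. Cd69 follows the immediate early genes (r = 0.88), Itga1 the endothelial markers (r = 0.82) and Itgb7 the T cell identity genes (r = 0.94), while Cd44 runs against the latter (r = -0.50). The immediate early list was drawn up after the data were seen and holds the genes closest to Cd69.

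The genes most similar to the remaining members, by Pearson correlation over the 20 arrays, were as follows. Itgal was closest to Sema4d and Esyt1 (r = 0.97 each), Itgb7 to Dok2 (r = 0.96) and Cotl1 (r = 0.95), and Itga4 to Ms4a4b (r = 0.93) and B3gnt5 (r = 0.92). Itgae was closest to Gng10 and Ada (r = 0.91 each), Itgb2 to Evi2a (r = 0.92) and Klra9 (r = 0.87), and Cd44 to Capg (r = 0.92) and Gas2l3 (r = 0.91). Ptger4, a prostaglandin receptor gene, was the other gene nearest to Rgs1 (r = 0.91).

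Calls among other integrin chains were near the share over all genes or rested on 2 genes. Of 17 measured, 1 rose and 0 fell in the combination vs saline, Itga7 (1.49, SE 0.32, limma adjusted p = 0.00718), a laminin-binding chain, where 5.63% of all genes were called. In the combination vs SD-101, 2 rose, Itga7 (1.43, adjusted p = 0.0111) and Itga9 (1.43, adjusted p = 0.0439), where the share was 4.77%. The other 4 comparisons had 0 calls among them. Of 15 genes of integrin activation and its adaptors, such as talin (Tln1) and kindlin-3 (Fermt3), 0 were called in any of the 6 comparisons in limma, with list medians of -0.23 to 0.11. The mean of this list correlated with Itgal at 0.94 over arrays with group means removed.

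Ligands of these receptors are made largely by vessel, epithelial and stromal cells. Icam2, a ligand of LFA-1 on vessels, fell in the combination vs saline (-1.63, SE 0.30, limma adjusted p = 0.00281) and in the a-CD4 combination vs saline (-1.73, SE 0.32, adjusted p = 0.0032), where 9 of 10 endothelial markers fell as well, and the part of vessel cells in it was not tested. The collagen gene Col1a1 rose in both (2.29, adjusted p = 0.00429, and 1.8, adjusted p = 0.0279), and the laminin gene Lama2 rose in the former (1.53, adjusted p = 0.0323). Of 10 ligand genes, 7 and 8 were not called there, and Icam2 was the only call in the combination vs SD-101 and in the a-CD4 combination vs SD-101. Of all genes, 5.63% and 7.12% were called in these comparisons with saline and 4.77% and 0.983% in those with SD-101.

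Genes of the residency programme outside the 9 members were called in 2 comparisons. In the combination vs saline 1 of 16 rose, the chemokine receptor gene Cxcr3 (1.45, SE 0.30, limma adjusted p = 0.00549), which is near the 5.63% called over all genes. In the a-CD4 combination vs saline 3 of 16 rose and 1 fell: Pdcd1 (2.60, adjusted p = 0.00244) and Havcr2 (2.58, adjusted p = 0.0139), which encode the inhibitory receptors PD-1 and TIM-3, Cxcr3 (1.64, adjusted p = 0.00372), and Ccr8 (-1.02, adjusted p = 0.046), a chemokine receptor gene. Over all genes 7.12% were called in the latter comparison. The list medians were 0.25 and 0.32 against 0.03 and 0.04 for all genes. Cxcr6, Prdm1, Runx3 and Xcl1, further genes of that programme, were among those not called.

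Genes of circulation and egress, the counterpart of residency, were called mainly as lower. In the combination vs saline 3 of 8 fell and 0 rose: S1pr1 (-1.33, SE 0.24, limma adjusted p = 0.00234), the egress receptor that CD69 opposes, and Klf2 (-0.97, adjusted p = 0.0197) and Klf3 (-0.53, adjusted p = 0.0414), of which Klf2 drives S1pr1 transcription. In the a-CD4 combination vs saline 4 fell, led by Klf3 (-1.06, adjusted p = 0.00079), Klf2 (-1.51, adjusted p = 0.00176) and S1pr1 (-1.44, adjusted p = 0.00244), and 1 rose, Cx3cr1 (1.0, adjusted p = 0.0189), a receptor of circulating effector cells. In these comparisons 5.63% and 7.12% of all genes were called. S1pr1 and Klf2 are also expressed by endothelium, and 9 of 10 endothelial markers fell in both comparisons, with list medians of -3.42 and -2.11. The part of vessel cells in these falls was not tested. Beside them, the Cd69 difference was -1.45 and -1.71 in the 2 comparisons. Of 12 genes of TGF-beta signalling, the cytokine that induces Itgae, the inhibitor gene Smad7 fell in both comparisons (-0.90, adjusted p = 0.0193, and -1.21, adjusted p = 0.00389) and Smad4 in the latter (-0.52, adjusted p = 0.0267), with 0 rising.

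Scores of other cell types in the RNA also differed between groups. The mast cell score, which is of interest since mucosal mast cells carry alpha E and beta 7, ran from 4.88 to 5.62 with SD-101 and from 3.20 to 3.78 with the combination. Over the 20 arrays it correlated with Itgae at 0.12 and with Itgb7 at 0.02 (-0.29 and -0.26 with group means removed). The protease genes Cma1 (2.57, limma adjusted p = 0.00027) and Mcpt2 (2.40, adjusted p = 0.0355) rose in SD-101 vs saline. In the combination vs SD-101 6 of 9 markers fell, led by Cma1 (-2.99, adjusted p = 5e-05), Mcpt2 (-3.60, adjusted p = 0.00084) and Cpa3 (-2.48, adjusted p = 0.00119). Of all genes, 0.333% were called in SD-101 vs saline and 4.77% in the combination vs SD-101. Kit averaged 7.14 over all arrays and Cpa3 5.81, while Tpsb2 and Ms4a2 were near the bottom of the scale at 2.77 and 3.04. The lung epithelial score was 10.56 ± 0.21 (SD, n = 5) with the combination and 9.41 ± 0.83 (SD, n = 5) with saline, and the fibroblast score was 7.98 ± 0.30 and 7.10 ± 0.73. The dendritic cell score reached 6.45 on SD-101 replicate 4 and lay between 3.98 and 5.51 elsewhere. The part of these cells in the members' levels was not tested.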

How the data were processed

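The values the authors deposited are log2 intensities, with a row for each probe set, and per the submitters' processing notes affy, RMA and limma were used and the build mm8 was named, with no version, role or order. Biotin-labelled RNA was hybridised to Affymetrix arrays, per the labels' protocols. The deposited values ran from 1.78 to 13.44 and were used without further normalization. Arrays carry no read depth, and their number limits precision. Of 45141 probe sets, 28898 had 1 gene symbol and gave 17097 genes, the probe set of highest mean standing for each of 7180 genes with several.

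The groups entered a single fit in limma 3.58.1 (R 4.3.3) with group means as terms, and 6 comparisons were tested 2-sided, adjusted over all genes by Benjamini-Hochberg. "Rose" and "fell" are used for adjusted p under 0.05. Exact permutation tests were 2-sided. The fit was tested on simulated data. The members and lists were chosen with earlier results of these data known. Named were all members, the 2 genes most correlated with each (predicted genes left out), and up to 3 called genes of smallest p per list and comparison, with others needed to show a list's level. Differences are printed where a member's was largest, had an unadjusted p under 0.05 or was called under another setting, and a few more beside them. The immediate early list was added after the data were seen. Equal replicate numbers were not taken to pair the arrays, since of 27 equal-numbered pairs, only 9 had a correlation of deviations over 0.1 (median 0.0135). Promoters came from RefSeq (GRCm38.p6), where 4 of 9 members matched, and 7 motifs were searched. Other settings changed the probe set rule, scaling, level filter, variance model, array weights, groups fitted, a replicate block, a T cell covariate, the 2 arrays of lowest T cell score and each array in turn.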

Additional observations from a re-analysis of the deposited data

Results flagged for a closer look

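In 7 of 36 sets of a gene and a group, 1 array stood further from the rest than Dixon's 95% limit allows, where chance gives about 1 in 20. A-CD4 combination replicate 2 was the low array for Itga4 (7.45, next 9.30), Itgal (9.03, next 10.83), Cd69 (6.79, next 8.44) and Rgs1 (7.95, next 9.89), and its T cell identity score of 8.11 was the lowest of the series. SD-101 replicate 2 was the low array for Itgal (9.80, next 10.42) and Itgb7 (9.34, next 9.82), with a T cell identity score of 9.0, the lowest of its group. Combination replicate 3 was the high array for Itga1 (6.57, next 5.78).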

How the results depend on the processing

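No member was called in the fit described, and the fits that left out 1 array of the groups compared (9 to 11 per comparison) gave 0 to 1 called member in the combination vs SD-101, the a-CD4 combination vs SD-101 and the a-CD4 combination vs saline, 0 to 2 in the combination vs saline, and 0 to 0 in SD-101 vs saline and the a-CD4 combination vs the combination. SD-101 vs saline had 0 calls under all 10 other settings. Array weights called 4 members in the combination vs SD-101 (Itga1, Itgb2, Cd69, Rgs1), 2 in the combination vs saline (Itga1, Cd69), 3 in the a-CD4 combination vs saline (Itgal, Itgb2, Cd69), 1 in the a-CD4 combination vs SD-101 (Cd69) and 1 in the a-CD4 combination vs the combination (Itgb2). The replicate block called 2 (Itga1, Cd69) in the combination vs SD-101 and 2 in the combination vs saline. It called 1 (Cd69) in each of the a-CD4 combination vs SD-101 and vs saline. Over all genes, arrays of equal number were hardly more alike than those of unequal number (median correlation of deviations 0.0135 and -0.0118). That does not speak to single genes or to a set of replicates 1 and 2. With the block the SE of the Cd69 difference of the combination vs saline was 0.27 in place of 0.49 (-1.45, adjusted p = 0.00561). The T cell score as a covariate called 1 (Cd69) in each of these 4 comparisons. Omission of both arrays of lowest T cell score called 1 (Cd69) in the combination vs SD-101 and 1 (Cd69) in the combination vs saline. Median centring and quantile normalization each called 1 (Itga1) in those same 2 comparisons. The 2 groups alone called 2 (Itga1, Cd69) in the combination vs saline. Quantile normalization, the level filter and the trended robust fit each called 1 (Cd69) in the a-CD4 combination vs saline. The cause of these changes was not tested. Centring moved the median difference of all genes from 0.031 to -0.107 in the combination vs saline and from 0.008 to -0.109 in the combination vs SD-101. Of 54 member differences, the 18 followed singly kept their direction under the 19 to 21 settings tried for each, while 23 of the other 36 changed direction under at least 1. The 18 were picked as a member's largest difference, for an unadjusted p under 0.05 or for a call under some setting. This contrast therefore follows from the choice and is no measure of robustness.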
